A study of Mus musculus with 32 samples.

Results

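The change between an early and a late response to aphidicolin was described in mouse embryonic fibroblasts (MEFs) as 1 number per gene: the aphidicolin-minus-DMSO difference at 24 h less the same difference at 4 h, averaged over 4 cell lines. All 32 RNA-seq libraries of the series entered it, 16 at 24 h and 16 at 4 h, and 18484 of 39017 genes had enough reads to be tested. The lines were an ATMIN knock-out with its wild-type line (wtATMIN) and an ATM knock-out with its own wild-type line (wtATM). Each line received 1 µM aphidicolin (APH) or DMSO for 24 h or for 4 h, which makes 16 groups of 2 samples. Per-line values are given in the order ATMIN knock-out, wtATMIN, ATM knock-out, wtATM. Each knock-out is 1 line and its allele is not stated, and what differs between a knock-out and its wild-type line may be the genotype or the line. No label tells if the paired samples within a group came from separate cultures, so the p-values measure the spread between samples, which may be technical.

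Aphidicolin blocks the replicative DNA polymerases, so replication forks slow or stall and cells in S phase are held back from mitosis. Stalled forks activate the ATR and ATM kinases, which stabilise p53 and restrain the mitotic kinases. ATMIN, a partner of ATM with zinc fingers, also drives transcription of Dynll1. In cultured fibroblasts, mitotic genes are transcribed in G2 and M phase under B-MYB and FOXM1, and genes for DNA synthesis are transcribed at the G1/S border under E2F factors. In a bulk library a shift in the share of cells in a phase and a change of RNA per cell cannot be told apart.

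Total counts per library ran from 9321329 to 21020662. Of 12 fibroblast markers 11 had a median of at least 1 CPM (read counts relative to the library's TMM-scaled total). Of other cell types, 0 of 8 epithelial and 0 of 8 endothelial markers did, and 3 of 8 neural, 2 of 10 blood, 1 of 8 muscle and 1 of 5 adipocyte markers. The highest single values were 227 CPM for Krt14 (epithelial), 99.6 for Fabp4 (adipocyte), 86.6 for Tnnt2 (muscle) and 61 for Map2 (neural). Lyz2 (blood) reached 17.9 CPM and Erg (endothelial) 13.1 CPM. Atmin was at 3.77 to 6.77 CPM in the 8 libraries of the ATMIN knock-out line and at 20.4 to 32.9 CPM in wtATMIN. Atm was at 17.8 to 45.5 CPM in the ATM knock-out line and at 43.1 to 65.1 CPM in wtATM, so its ranges overlapped. Counts of this kind cannot show whether some exons are deleted. The ribosomal RNA-overlapping gene Gm42418 took up to 0.593% of the reads at 24 h and between 1.35% and 8.31% at 4 h, in APH and DMSO libraries alike. The ATM knock-out APH 4 h libraries stood apart. Replicate 1 had the 8.31% of Gm42418, replicate 2 was the shallowest library, and their correlation was 0.981 against 0.991 to 0.994 in the other groups. Reads fell on 155 and 406 olfactory and vomeronasal receptor genes in replicates 1 and 2, and on 17 to 95 in the other libraries. Counts of list members in the late minus early response that moved by over 1.5 times without either library are given without it.

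Late minus early responses were called, at an adjusted p under 0.05 by edgeR's quasi-likelihood test, for 3537 genes that were higher (19.1% of those tested) and 3318 that were lower (18%). Scaled by library size alone, without TMM, 67.0% of the calls were higher, against 51.6% with TMM. APH against DMSO was called for 4480 genes higher (24.2%) and 4381 lower (23.7%) at 24 h, and for 2849 higher (15.4%) and 3337 lower (18.1%) at 4 h. Within single lines the late minus early response was called for 3902 genes in the ATMIN knock-out (21.1%), 3430 in wtATMIN (18.6%), 4058 in the ATM knock-out (22%) and 2794 in wtATM (15.1%). The shares called higher and lower were 10.8% and 10.3% in the ATMIN knock-out, 9.12% and 9.44% in wtATMIN, 12.1% and 9.89% in the ATM knock-out, and 7.87% and 7.24% in wtATM. It was called higher in every one of the 4 lines for 339 genes (1.83%) and lower in every one for 223 (1.21%).

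The calls at 24 h, at 4 h and for their difference sorted the genes into classes, which are a description with no test of their own: 7.91% of the genes switched, 12.6% persisted, 7.47% faded and 16.9% started late. Late start was the most frequent, with 1566 genes higher (8.47%) and 1552 lower (8.4%) at 24 h that were not called at 4 h. Persisting genes were called at both times with 1 sign, 1032 of them higher (5.58%) and 1304 lower (7.05%). The difference between the times was not called for 762 of the higher and 918 of the lower ones. Genes that switched were called at both times with opposite signs, 867 higher at 24 h and lower at 4 h (4.69%) and 596 lower at 24 h and higher at 4 h (3.22%). Fading genes were called at 4 h only, with a called difference, 680 of them higher (3.68%) and 700 lower (3.79%) at 4 h. A further 2951 genes were called at a time but fitted none of these patterns (16%), 238 differed between the times without a call at either, and 6998 had no call (37.9%). Most of the changes were small. The genes that switched to higher had medians of 0.27 at 24 h and −0.26 at 4 h on the log2 scale. Requiring a size of at least 0.5 wherever a gene was called and under 0.25 where it was not left 62 switches to higher, 4 switches to lower, 392 late starts to higher and 200 to lower.

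**Figure D1:**
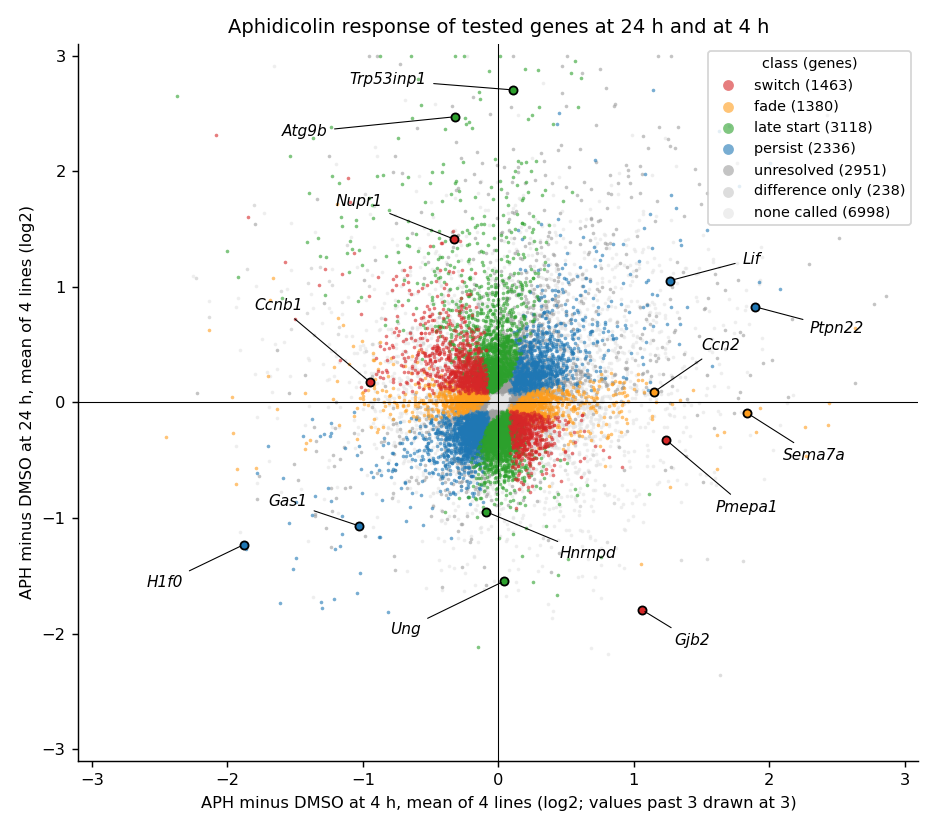
Mean APH minus DMSO response over 4 lines at 24 h (y axis, log2) against that at 4 h (x axis, log2), 1 point per tested gene, coloured by class. Switching genes lie at the upper left and lower right (Ccnb1 at 0.18 and −0.95, Gjb2 at −1.79 and 1.06), persisting genes at the upper right and lower left, late starts along the vertical axis and fading genes along the horizontal axis.

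Most mitotic genes were lower with APH at 4 h and higher with APH at 24 h. Of 60 mitosis genes, 58 had a higher late minus early response and 0 a lower one, where 19.1% of all genes were higher. At 4 h 58 were lower (18.1% of all genes), and at 24 h 39 were higher and 5 lower (24.2% and 23.7%). Thus 37 switched to higher (4.69%), 15 faded from lower (3.79%), 2 started late to higher (8.47%) and Kif18a was unresolved. The 5 that were lower at both times were a share near the 7.05% of all genes. The list's medians were 0.15 at 24 h and −0.64 at 4 h, against 0.01 and 0.00 over all genes, and its DMSO level moved by a median of 0.02 between the times. Without either of the ATM knock-out APH 4 h libraries in turn, 35 and 37 members switched, and without the ATM knock-out line in the mean 41 switched and 3 were lower at both times.

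Ccnb1 encodes cyclin B1, the partner of Cdk1 at mitotic entry (ENSMUSG00000041431; mm10 chromosome 13, 100778650 to 100786570). It was at 139, 205 and 395 CPM (lowest, median and highest of 8 libraries) with APH and at 147, 185 and 266 CPM with DMSO at 24 h. At 4 h it was at 62.5, 71.9 and 110.5 CPM with APH and at 108, 150.3 and 212 CPM with DMSO. In every line both APH libraries lay below both DMSO libraries at 4 h, a pattern 4.61% of genes showed, while at 24 h they lay above in wtATMIN and the ATMIN knock-out, below in the ATM knock-out and overlapped in wtATM. The mean response was 0.18 ± 0.03 at 24 h and −0.95 ± 0.03 at 4 h (log2 ± SE), a late minus early response of 1.13 ± 0.04 (edgeR adjusted p = 1.18e-20). The kinesins Kif20a and Kif2c, which act in cytokinesis and in microtubule disassembly at kinetochores, changed by 0.26 ± 0.03 and 0.37 ± 0.03 at 24 h and by −0.86 ± 0.03 and −0.82 ± 0.03 at 4 h. Both lay above DMSO in each line at 24 h and below it in each line at 4 h, which 0.422% of genes did. Ube2c, the ubiquitin-conjugating enzyme of the anaphase-promoting complex, changed by 0.27 ± 0.04 and −0.89 ± 0.04, and Dlgap5, a spindle protein, by 0.50 ± 0.04 and −0.58 ± 0.04. Not every mitotic regulator crossed zero. Plk1, the polo-like kinase, had 82.6, 98.5 and 157 CPM with APH and 107, 117 and 132 CPM with DMSO at 24 h, and 47.8, 51.5 and 66.7 CPM with APH and 114, 140.4 and 173 CPM with DMSO at 4 h. The groups did not overlap in any line at 4 h, and at 24 h APH was lower in 3 lines and higher in wtATMIN. Plk1 stayed lower at both times (−0.14 ± 0.03 and −1.37 ± 0.04, late minus early 1.23 ± 0.05), as did Cdc20, the activator of the anaphase-promoting complex (−0.29 ± 0.03 and −1.44 ± 0.04). Aurka, the Aurora A kinase, faded, with −0.05 ± 0.03 at 24 h and −1.04 ± 0.03 at 4 h.

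The promoters of Ube2c and of Ckap2l, a spindle gene that switched in each line taken alone, are shown because they hold the paired elements known from human cell-cycle genes: the CCAAT box (CCAAT) and the cell cycle genes homology region (CHR, TTTGAA). Capitals mark these letters on either strand, and overlapping CCAAT boxes on opposite strands run together. The sequences are from RefSeq (build GRCm38.p6), 250 bases before to 50 after the start, 5′ to 3′ on the gene's strand, Ube2c at chr2:164769679-164769978 (plus strand) and Ckap2l at chr2:129297163-129297462 (minus strand).
Ube2c: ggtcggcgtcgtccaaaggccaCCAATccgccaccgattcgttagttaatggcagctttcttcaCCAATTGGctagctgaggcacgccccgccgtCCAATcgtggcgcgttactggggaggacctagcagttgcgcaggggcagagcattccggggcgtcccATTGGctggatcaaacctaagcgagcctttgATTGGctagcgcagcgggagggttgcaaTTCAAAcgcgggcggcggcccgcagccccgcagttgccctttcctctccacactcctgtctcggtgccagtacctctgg
Ckap2l: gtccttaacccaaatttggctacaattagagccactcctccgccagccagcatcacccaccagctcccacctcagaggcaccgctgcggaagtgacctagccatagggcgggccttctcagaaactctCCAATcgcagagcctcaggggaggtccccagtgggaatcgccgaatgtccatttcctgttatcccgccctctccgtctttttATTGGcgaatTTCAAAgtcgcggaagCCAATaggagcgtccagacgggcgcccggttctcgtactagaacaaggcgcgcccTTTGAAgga
Of 57 promoters matched to the mitosis list by symbol, 46 held a CCAAT box (80.7%), 38 a CHR (66.7%) and 33 both (57.9%). Among 14609 promoters of tested genes the shares were 37.6%, 12.4% and 5.07%. Promoters of all genes that switched to higher held both elements in 8.18%, and those of genes lower at 4 h that faded in 7.95%. A match of letters is a description and does not show binding.

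The switch of mitotic genes differed between the pairs of lines. Taken line by line, 36 of the 60 genes switched in the ATMIN knock-out, 38 in wtATMIN, 6 in the ATM knock-out and 11 in wtATM. Over all genes 1.77%, 1.51%, 1.66% and 0.46% switched to higher in these lines. The medians at 24 h were 0.29, 0.35, −0.04 and −0.03, while at 4 h all 4 medians lay between −0.81 and −0.48. The late minus early response of 47 members differed among the lines (F-test over 4 lines, 12.9% of all genes), and 48 were higher in the ATMIN pair than in the ATM pair (3.21% of all genes) with 0 lower. For Ccnb1 the late minus early values were 1.53, 1.48, 0.69 and 0.81.

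**Figure D2:**
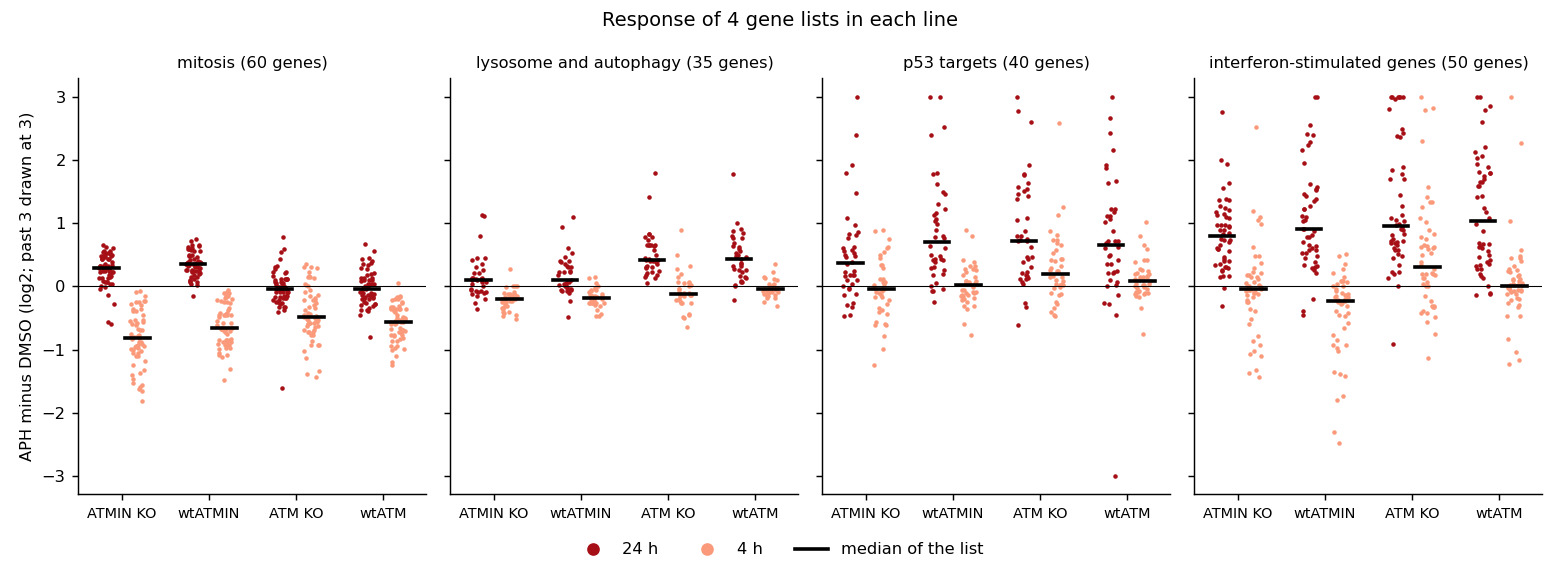
APH minus DMSO response (y axis, log2, values past 3 in size drawn at that limit) of the members of 4 gene lists in each line, at 24 h (dark, left) and at 4 h (light, right); black bars are list medians. The mitosis medians at 24 h are above 0 in the ATMIN pair (0.29 and 0.35) and just below 0 in the ATM pair (−0.04 and −0.03), while those of the lysosome list are larger in the ATM pair (0.43 and 0.43) than in the ATMIN pair (0.10 and 0.10).

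Lysosome and autophagy genes also switched. Of 35 genes, 30 had a higher late minus early response and 0 a lower one; 31 were higher at 24 h and 24 lower at 4 h, with 21 switches, 8 late starts to higher and 1 gene that faded. Over all genes 19.1% were higher in the late minus early response, 24.2% higher at 24 h and 18.1% lower at 4 h, and 4.69% switched to higher. The medians were 0.26 at 24 h and −0.14 at 4 h. Neu1, the lysosomal sialidase, had 18.1, 22.9 and 50.1 CPM with APH and 9.7, 12.2 and 30.0 CPM with DMSO at 24 h, and 6.46, 15.5 and 24.9 CPM with APH and 12.4, 18.4 and 35.5 CPM with DMSO at 4 h. Its APH libraries lay above DMSO in 4 lines at 24 h and below it in 3 lines at 4 h, and the late minus early response was 1.29 ± 0.09 (edgeR adjusted p = 3.83e-14). Sqstm1, the autophagy receptor p62, changed by 0.52 ± 0.04 at 24 h and −0.26 ± 0.04 at 4 h, and the peptidase Tpp1 by 0.46 ± 0.03 and −0.18 ± 0.03. Map1lc3b and Gabarapl1, which coat autophagosome membranes, changed by 0.54 ± 0.04 and 0.38 ± 0.04 at 24 h and by −0.19 ± 0.04 and −0.22 ± 0.04 at 4 h. Fewer members met the switch in single lines (4, 5, 6 and 0), where late start to higher took 4, 9, 19 and 21 of them. Over all genes the per-line shares were 1.77%, 1.51%, 1.66% and 0.46% for the switch to higher. For late start to higher they were 5.06%, 4.68%, 5.21% and 5.95%. In wtATM 0 members were called lower at 4 h. Without the ATM knock-out line in the mean, 16 switched. The 11 lysosomal enzymes that digest sugar chains, a list drawn up after their values were seen, held 7 late starts and 4 switches, all to higher. Ctsd, the protease cathepsin D, is shown for its promoter because it holds the E-box CACGTG (capitals) at both of the places marked, the core of the site that TFEB and other factors are known to bind, in RefSeq GRCm38.p6 at chr7:142387778-142388077 (minus strand).
Ctsd: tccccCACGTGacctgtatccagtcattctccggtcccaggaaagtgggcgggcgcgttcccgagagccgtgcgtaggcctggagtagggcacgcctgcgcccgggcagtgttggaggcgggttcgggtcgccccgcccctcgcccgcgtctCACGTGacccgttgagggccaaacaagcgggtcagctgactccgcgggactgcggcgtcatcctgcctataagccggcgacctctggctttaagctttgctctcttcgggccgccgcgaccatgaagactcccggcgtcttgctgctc
Of 31 promoters of the list 10 held the E-box (32.3%), against 9.52% of all promoters. Ctsd changed by 0.26 ± 0.03 at 24 h and −0.12 ± 0.03 at 4 h.

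The integrated stress response, in which phosphorylation of eIF2 raises ATF4 and CHOP, held switches in both directions. Of 30 genes, 18 had a higher and 4 a lower late minus early response (19.1% and 18% of all genes), and 10 switched to higher (4.69%). The lower ones numbered 6 without ATM knock-out APH 4 h replicate 2, 7 without that line in the mean and 2 by library size alone. Nupr1, a stress-induced chromatin protein, had 29.3, 66 and 98.2 CPM with APH and 8.47, 21.6 and 66.6 CPM with DMSO at 24 h, and 7.25, 20.9 and 34 CPM with APH and 8.74, 23.9 and 60.6 CPM with DMSO at 4 h. APH libraries were above DMSO in 4 lines at 24 h, and at 4 h below it in 2 lines and above it in the ATM knock-out. Its late minus early response was 1.74 ± 0.08 (edgeR adjusted p = 5.13e-19), with 1.44, 1.74, 1.7 and 2.06 in the 4 lines. Ppp1r15a, the phosphatase subunit GADD34, changed by 1.12 ± 0.04 and −0.17 ± 0.05, the mTORC1 inhibitor gene Ddit4 by 1.04 ± 0.06 and −0.67 ± 0.06, Ddit3, which encodes CHOP, by 0.69 ± 0.05 and −0.54 ± 0.05, and Trib3 by 0.77 ± 0.06 and −0.63 ± 0.06, each at 24 h and at 4 h. Atf4 itself faded, at 0.07 ± 0.03 and −0.33 ± 0.03. The endoplasmic reticulum genes Hspa5, a chaperone, and Xbp1, a transcription factor of the unfolded protein response, switched the other way (−0.16 ± 0.04 and −0.48 ± 0.05 at 24 h, 0.45 ± 0.04 and 0.22 ± 0.05 at 4 h). The serine synthesis genes Phgdh, Psat1 and Shmt2 were lower at both times.

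By the rule for named genes, the largest switches to higher with 1 sign per time in all lines were Nipal3, Mettl27, Tcn2 and Apol9a, with late minus early responses of 1.85 ± 0.26, 1.85 ± 0.16, 1.79 ± 0.20 and 1.78 ± 0.09. The 4 h call of Tcn2 was lost in 20 of 41 alternative settings (edgeR and DESeq2 adjusted p up to 0.357), without which it is a late start. Tcn2 encodes transcobalamin, which carries vitamin B12, and Nipal3 is related to magnesium transporters. Mettl27 had 3.69, 12.3 and 32.2 CPM with APH and 1.7, 6.15 and 13.6 CPM with DMSO at 24 h, against 0.766, 2.63 and 8.13 CPM with APH and 1.35, 4.2 and 10.9 CPM with DMSO at 4 h. Its groups did not overlap in any line at either time. Nipal3 reached no more than 5.24 CPM in any library.

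Among genes that switched to lower expression, Gjb2, which encodes the gap junction protein connexin 26, had the largest change under the naming rule (ENSMUSG00000046352; mm10 chromosome 14, 57098600 to 57104702). It was at 0.472, 7.39 and 32.7 CPM with APH and 1.49, 21.9 and 100.1 CPM with DMSO at 24 h, and at 9.13, 31.9 and 169 CPM with APH and 4.85, 17.7 and 77.1 CPM with DMSO at 4 h. Levels differed widely between lines. In wtATMIN the libraries read 15.4 and 14 CPM with APH and 40.1 and 42.6 CPM with DMSO at 24 h, and 152 and 169 CPM with APH and 77.1 and 68.5 CPM with DMSO at 4 h. In every line APH lay below DMSO at 24 h and above it at 4 h without overlap, as for 0.124% of genes. The mean response was −1.79 ± 0.10 at 24 h and 1.06 ± 0.05 at 4 h, a difference of −2.85 ± 0.12 (edgeR adjusted p = 2.09e-20), with line values of −4.13, −2.63, −2.67 and −1.98. Pmepa1, an inhibitor of TGF-β signalling, followed with 34.4, 44.2 and 96.7 CPM with APH and 44.6, 55.5 and 124 CPM with DMSO at 24 h, and 80.2, 188 and 246 CPM with APH and 23.9, 78.1 and 140.1 CPM with DMSO at 4 h. Its groups were apart in every line at both times (−0.33 ± 0.04 and 1.24 ± 0.04). Lef1, a transcription factor of the Wnt pathway, and Trabd2b, a Wnt protease, changed by −0.56 ± 0.21 and −0.47 ± 0.11 at 24 h and by 0.92 ± 0.13 and 0.81 ± 0.10 at 4 h. Lef1 had at most 8.91 CPM, and its 24 h call was lost in 10 of 41 settings, among them DESeq2 (−0.56, adjusted p = 0.0577).

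**Figure D3:**
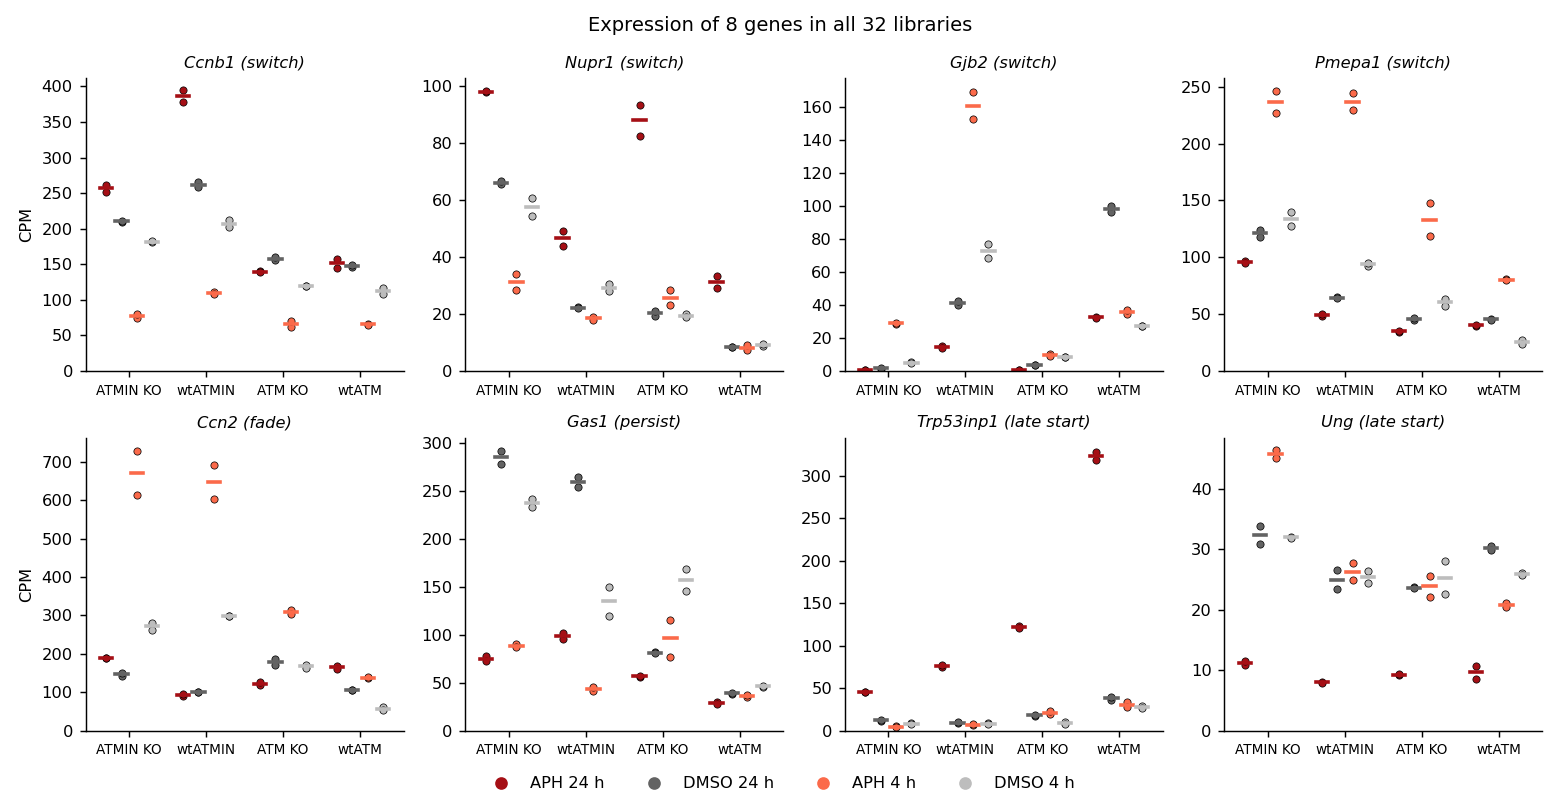
CPM (y axis) of 8 genes in all 32 libraries by line (x axis), with APH at 24 h, DMSO at 24 h, APH at 4 h and DMSO at 4 h from left to right within each line; points are single libraries and bars the mean of 2. Gjb2 and Pmepa1 lie below DMSO at 24 h and above it at 4 h in every line, whereas Trp53inp1 lies above DMSO in every line at 24 h, at 45.3 to 328 CPM with APH.

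Genes of the G1/S transition were mostly higher at 4 h and divided at 24 h. Of 54 G1/S cyclins and E2F targets, 36 had a lower late minus early response (18% of all genes) and 4 a higher one, or 1 without the ATM knock-out line in the mean. At 4 h 41 were higher and 1 lower, and at 24 h 25 were higher and 20 lower. The largest group, 23 genes, stayed higher at both times (5.58% of all genes), 12 switched to lower (3.22%), 7 started late to lower and 6 faded. The subunits of the replicative helicase Mcm3, Mcm4, Mcm5, Mcm6 and Mcm7 all switched to lower and Mcm2 started late. Mcm6 was at 212, 226 and 325 CPM with APH and 276, 301 and 317 CPM with DMSO at 24 h, and at 252, 271 and 373 CPM with APH and 207, 249 and 298 CPM with DMSO at 4 h, with APH below in 3 lines at 24 h and above in 3 lines at 4 h. Its responses were −0.31 ± 0.03 and 0.19 ± 0.03 (late minus early −0.50 ± 0.04, edgeR adjusted p = 5.43e-12). Ccne1, cyclin E1, which starts S phase, had 39, 49.7 and 61.8 CPM with APH and 31.1, 35.9 and 45.5 CPM with DMSO at 24 h, and 60.6, 74.4 and 88.3 CPM with APH and 27.1, 31.5 and 60.0 CPM with DMSO at 4 h. It was above DMSO in every line at both times and smaller in its response at 24 h (0.39 ± 0.04 against 1.06 ± 0.04). The ribonucleotide reductase subunits Rrm1 and Rrm2 also stayed higher, and Pcna, the sliding clamp, faded (−0.05 ± 0.03 and 0.37 ± 0.03). Per line, 28, 7, 13 and 2 members persisted higher (2.42%, 1.77%, 3.64% and 0.925% of all genes). Those that switched to lower numbered 3, 10, 0 and 1 (1.88%, 1.16%, 1.05% and 0.406%). The E2F motifs TTTCCCGC or TTTGGCGC, on either strand, stood in 16 of 53 promoters of the list (30.2%), against 2.7% of all promoters.

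Recombination and Fanconi genes, which repair broken forks and crosslinks, had no lower member at 4 h. Of 36 genes 23 were higher at 4 h (15.4% of all genes), and 21 were higher and 6 lower at 24 h (24.2% and 23.7%). There were 16 that persisted higher (5.58%). In the late minus early response 7 were higher, a share near the 19.1% of all genes, and 12 were lower (18% of all genes), or 7 without the ATM knock-out line in the mean and 5 by library size alone. Fancd2, the ubiquitinated core of the Fanconi pathway, had 57.5, 88.3 and 99.5 CPM with APH and 39.8, 53.9 and 87.8 CPM with DMSO at 24 h, and 31.2, 43.8 and 66.7 CPM with APH and 30.6, 43 and 54.9 CPM with DMSO at 4 h. It was above DMSO in 4 lines at 24 h and in 3 at 4 h, and its late minus early response was 0.38 ± 0.06, with 0.92, 0.42, −0.07 and 0.24 in the lines. The 5′ to 3′ exonuclease Exo1 faded (−0.06 ± 0.04 and 0.54 ± 0.04) and Fancl, the ligase of the pathway, switched to lower (−0.44 ± 0.05 and 0.22 ± 0.06). In the pair comparison 12 members were higher in the ATMIN pair (3.21% of all genes) and 0 lower.

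Cholesterol synthesis had the largest share of persisting genes among the 16 lists. Of 25 genes 20 were lower at both times (7.05% of all genes), with medians of −0.31 at 24 h and −0.48 at 4 h. Late minus early responses were higher for 12 and lower for 3 (19.1% and 18% of all genes), without the ATM knock-out line in the mean for 4 and 5, and by library size alone for 14 and 1. Mvd, a mevalonate pathway decarboxylase, had 22.6, 27.6 and 39.9 CPM with APH and 25.9, 36.4 and 46.5 CPM with DMSO at 24 h, and 22.9, 44.2 and 85.9 CPM with APH and 52.4, 78.5 and 129 CPM with DMSO at 4 h. APH was below DMSO in 3 lines at 24 h and in 4 at 4 h. Insig1, which retains the sterol sensor SCAP in the endoplasmic reticulum, changed by −0.31 ± 0.04 and −0.68 ± 0.04. Acat2, an acetyl-CoA acetyltransferase, faded instead (0.08 ± 0.04 and −0.48 ± 0.04).

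The linker histone gene H1f0 had the largest persisting decrease (ENSMUSG00000096210; mm10 chromosome 15, 79028450 to 79030504). It read 28.2, 136 and 162 CPM with APH and 89.8, 249 and 476 CPM with DMSO at 24 h, and 40.2, 90.9 and 154 CPM with APH and 123, 333 and 716 CPM with DMSO at 4 h. No line had overlapping groups at either time. The responses were −1.23 ± 0.04 and −1.88 ± 0.04, and the late minus early values were 0.97, 1.4, 0.03 and 0.20 in the lines. H2afx, the histone variant phosphorylated at breaks, changed by −0.78 ± 0.05 and −1.01 ± 0.05, also without overlap in any line. Gas1, a growth arrest gene at the cell surface, had 27.8, 64.6 and 101 CPM with APH and 38.2, 167 and 292 CPM with DMSO at 24 h, and 35, 61 and 115 CPM with APH and 45.3, 147 and 241 CPM with DMSO at 4 h. Its responses were −1.07 ± 0.06 and −1.03 ± 0.06, and their difference of −0.04 ± 0.08 was not called (edgeR adjusted p = 0.771). Ovgp1 changed by −0.85 ± 0.14 and −0.86 ± 0.23 at no more than 6.63 CPM. Replication-dependent histones have near-identical copies that share reads. Of 58 genes tested, 56 were lower at 4 h (18.1% of all genes) and 23 at 24 h (23.7%). There were 23 that persisted lower (7.05%) and 11 that faded from lower (3.79%), or 7 without ATM knock-out APH 24 h replicate 2. In single lines 42, 38, 16 and 49 of them were lower at 4 h. The ATM knock-out also had 4 that were higher at 4 h, and its 4 h median was −0.22. The histone level in DMSO differed by a median of −2.42 between 24 h and 4 h. The share of Gm42418 reads differed between the times as well. The part of such library differences in the histone values was not tested. In the late minus early response 13 histone genes were higher, a share near the 19.1% of all genes, and 1 was lower (18% of all genes). The higher ones numbered 20 without ATM knock-out APH 4 h replicate 1 and 23 without that line in the mean. The line medians were 0.21, 1.2, −0.55 and 0.86.

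The persisting increases taken by the naming rule were Lif, Traf1, Ccl2 and Ptpn22. Lif, a cytokine of the interleukin-6 family, had 11.3, 23.5 and 60.5 CPM with APH and 6.87, 10.9 and 22.8 CPM with DMSO at 24 h, and 18.3, 34.8 and 72.1 CPM with APH and 10.7, 15 and 20.2 CPM with DMSO at 4 h. It was above DMSO in every line at both times (1.05 ± 0.06 and 1.27 ± 0.06), but the late minus early values of the lines had opposite signs (−1.64, −0.41, 0.64 and 0.55; F-test adjusted p = 4.81e-08). Ptpn22, a phosphatase of immune signalling, changed by 0.83 ± 0.14 and 1.9 ± 0.15 at no more than 8.69 CPM, with −1.09, −0.94, −1.42 and −0.85 as line values. Traf1 and the chemokine gene Ccl2 changed by 1.11 ± 0.15 and 1.03 ± 0.07 at 24 h and by 0.97 ± 0.16 and 0.92 ± 0.10 at 4 h. Of 28 NF-κB and chemokine genes 13 persisted higher (5.58% of all genes), 4 started late to higher, 2 switched to lower, and 7 had a higher and 5 a lower late minus early response (19.1% and 18% of all genes). Without the ATM knock-out line in the mean 2 were higher and 7 lower, and 2 started late to higher. Ptgs2, the inducible cyclooxygenase, had 77.4, 278 and 490.2 CPM with APH and 63.4, 166 and 419 CPM with DMSO at 24 h, and 312, 384 and 527 CPM with APH and 106, 145 and 219 CPM with DMSO at 4 h, above DMSO in every line at both times, and its response was smaller at 24 h (0.50 ± 0.04 against 1.33 ± 0.04).

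Of 22 YAP/TEAD targets 3 faded from higher at 4 h (3.68% of all genes), 3 were higher at both times and 5 started late to lower (8.4%), or 3 without ATM knock-out APH 4 h replicate 2. In the late minus early response 2 were higher and 10 lower (19.1% and 18% of all genes), 5 and 9 without ATM knock-out APH 4 h replicate 1, and 6 and 5 by library size alone; without some of the other libraries in turn 1 was higher. Ccn2, the connective tissue growth factor gene and a target of YAP and TEAD factors (ENSMUSG00000019997; mm10 chromosome 10, 24595442 to 24598683), had 89.8, 143 and 190.2 CPM with APH and 99.3, 124 and 188 CPM with DMSO at 24 h, and 136, 459 and 728 CPM with APH and 53.5, 216 and 298 CPM with DMSO at 4 h. It lay above DMSO in every line at 4 h (3.21% of genes), but above in 2 lines and below in 2 at 24 h. The responses were 0.09 ± 0.04 and 1.15 ± 0.04, a difference of −1.06 ± 0.05 (edgeR adjusted p = 8.08e-18). At 24 h a call was gained in 14 of 41 settings, in which case Ccn2 persists; its 24 h value ran from −0.10 over the settings to 0.30 without the ATM knock-out line (edgeR adjusted p = 4.95e-07). Ccn1, its close relative, stayed higher (0.22 ± 0.03 and 0.66 ± 0.03) and F3, tissue factor, faded (0.07 ± 0.04 and 0.52 ± 0.04). Sema7a, a semaphorin taken by the naming rule, also faded, at 1.88, 4.56 and 14.1 CPM with APH and 3.11, 4.63 and 12.8 CPM with DMSO at 24 h, and 11.7, 37.5 and 117 CPM with APH and 8.75, 9.97 and 12.4 CPM with DMSO at 4 h. The rise at 4 h was without overlap in 3 lines, and the late minus early values were −3.24, −1.65, 0.05 and −2.87. Rgs16, which ends G protein signals, had 0.884, 8.31 and 83.2 CPM with APH and 0.241, 1.85 and 47.5 CPM with DMSO at 4 h, above in every line; at 24 h it was below DMSO in 1 line and above it in 1 (−0.26 ± 0.23 at 24 h and 1.66 ± 0.17 at 4 h). Zfp979 and Htr2a were also taken by the naming rule, but each had DMSO libraries without a read, so their fitted changes are not given. Among fading decreases Hist1h2ao and Hist1h2ap changed by −1.94 ± 0.15 and −1.79 ± 0.10 at 4 h. Their 24 h values ran from −1.14 to −0.27 and from −0.69 to −0.44 over the settings. Few reads were behind the 24 h values. The wtATM DMSO means were 0.55 and 0.81 CPM at 24 h, against 8.81 and 14.6 CPM at 4 h. A missing call at 24 h thus does not show that the decrease ended. Hopx and Ndnf had libraries without a read.

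Of 20 ERK feedback genes 2 had a higher and 7 a lower late minus early response, where 19.1% and 18% of all genes did. Dusp5, a phosphatase of ERK, faded (0.04 ± 0.05 and 0.70 ± 0.05), Phlda1 switched to lower (−0.15 ± 0.06 and 0.49 ± 0.05) and Dusp1, which acts on p38 and JNK as well, started late (0.97 ± 0.04 and 0.11 ± 0.05). The 24 h call of Phlda1 was lost in 17 of 41 settings (value up to −0.05, edgeR adjusted p up to 0.58), without which it fades. Among 25 immediate-early and AP-1 genes 7 were higher and 6 lower in the late minus early response (19.1% and 18% of all genes). The counts were 5 and 7 without the ATM knock-out line in the mean, and 11 and 6 by library size alone. Fosl1, an AP-1 subunit, switched to lower (−0.20 ± 0.05 and 0.29 ± 0.05), Zfp36, which destabilises AU-rich mRNA, switched to higher (0.57 ± 0.06 and −0.28 ± 0.08), and Atf3 started late (1.77 ± 0.10 and 0.05 ± 0.11). Of 36 collagen and matrix genes 5 were higher and 14 lower in the late minus early response (19.1% and 18% of all genes). Without ATM knock-out APH 4 h replicate 1 the counts were 8 and 13, without that line in the mean 2 and 19, and by library size alone 8 and 12. Timp1 and Timp3, inhibitors of metalloproteinases, differed by −0.73 ± 0.05 and −0.69 ± 0.05. The pair comparison had 0 matrix genes higher and 16 lower in the ATMIN pair (3.21% and 4.79% of all genes). Of 12 fibroblast markers 8 were lower at 24 h and 8 at 4 h (23.7% and 18.1% of all genes). In the late minus early response 2 markers were lower (18%). The 24 h marker medians were −0.61, −0.41, 0.10 and −0.04 in the lines. At 24 h 8 markers were lower in each line of the ATMIN pair. The ATM knock-out had 4 higher and 0 lower, and wtATM 1 and 1. Summed marker levels were 10880 to 25998 CPM with APH and 13929 to 29763 CPM with DMSO at 24 h. The part of the fibroblast markers in the matrix result was not tested. Of 23 NRF2 targets 8 were higher and 5 lower in the late minus early response (19.1% and 18% of all genes), with Ephx1 (1.2 ± 0.05) and Hmox1 (0.55 ± 0.05) among the higher and Srxn1 (−0.61 ± 0.05) among the lower. Of 20 circadian clock genes 10 were higher and 2 lower in the late minus early response (19.1% and 18% of all genes). Cry1, a repressor of the clock, switched to lower in the mean, with late minus early values of −0.51, −0.59, −0.55 and −0.55 in the lines. In each line taken alone 0 members of the list switched to lower. Nr1d1, which encodes REV-ERBα, switched to higher (0.50 ± 0.08), and Tef faded (0.07 ± 0.03 and −0.26 ± 0.04).

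**Figure D4:**
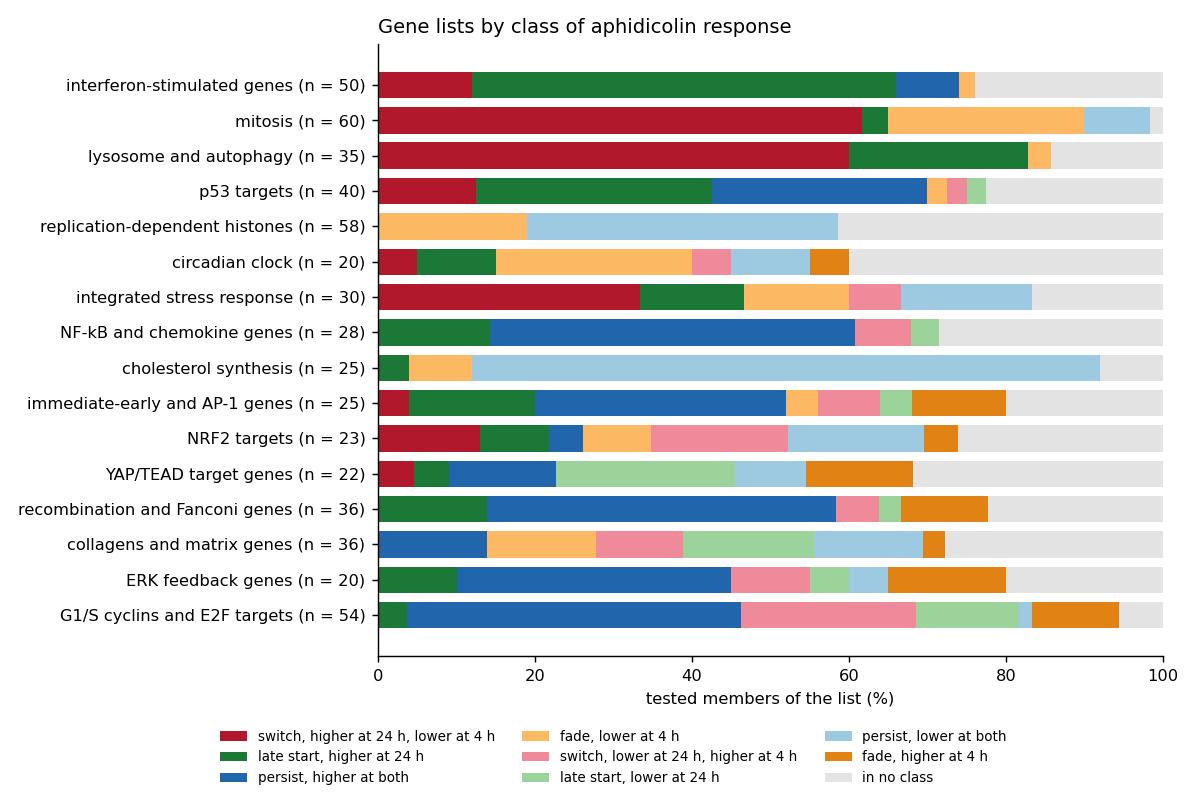
Share of the tested members of 16 gene lists (rows, ordered by the median late minus early response) that fell into each class (x axis, percent). Mitosis (37 of 60) and lysosome (21 of 35) hold the most switches to higher, cholesterol synthesis (20 of 25) the most genes lower at both times, and interferon-stimulated genes (27 of 50) the most late starts.

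Most p53 targets were higher at 24 h, 30 of 40, and 2 were lower, where 24.2% and 23.7% of all genes were. Of 40 genes, 27 had a higher late minus early response and 2 a lower one (19.1% and 18% of all genes). There were 12 that started late to higher (8.47%), 11 that were higher at both times (5.58%), or 7 without the ATM knock-out line in the mean, and 5 that switched (4.69%). The medians were 0.56 at 24 h and 0.11 at 4 h. Trp53inp1, a p53-induced nuclear protein linked to autophagy (ENSMUSG00000028211; mm10 chromosome 4, 11156431 to 11174379), had 45.3, 98.7 and 328 CPM with APH and 8.83, 14.8 and 39.3 CPM with DMSO at 24 h, and 3.97, 13.6 and 33.8 CPM with APH and 7.31, 8.97 and 28.8 CPM with DMSO at 4 h. APH was above DMSO in every line at 24 h (8.94% of genes), and at 4 h above in 1 line and below in 1. The response was 2.7 ± 0.05 and 0.10 ± 0.07, a difference of 2.6 ± 0.09 (edgeR adjusted p = 3.92e-22). With the ATM knock-out line left out its 4 h value was −0.28. Cdkn1a, the Cdk inhibitor p21, had 14.2, 56.6 and 176 CPM with APH and 5.43, 16.1 and 47.7 CPM with DMSO at 24 h, and 8.99, 26.1 and 101 CPM with APH and 10.8, 28.2 and 79.3 CPM with DMSO at 4 h. It was above DMSO in 4 lines at 24 h and in 2 lines at 4 h (1.75 ± 0.08 and 0.18 ± 0.08), with line values for the difference of 1.17, 2.11, 1.55 and 1.47. Mdm2, the ubiquitin ligase of p53, and Ccng1, cyclin G1, were called at both times but were much larger at 24 h (1.49 ± 0.03 and 0.14 ± 0.03 for Mdm2, 1.16 ± 0.04 and 0.16 ± 0.04 for Ccng1); without the ATM knock-out line the 4 h values were 0.06 and −0.03. The growth arrest gene Gadd45a switched (1.39 ± 0.07 and −0.28 ± 0.07). Trp53 itself was at 169, 212 and 334 CPM with APH and 177, 209.8 and 290.4 CPM with DMSO at 24 h, with 175, 228 and 293 CPM with APH and 173, 222 and 319.5 CPM with DMSO at 4 h, and its late minus early response was 0.04 ± 0.04 (edgeR adjusted p = 0.467).

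Interferon-stimulated genes started late more than in any other of the 16 lists. Of 50 genes, 46 were higher at 24 h and 0 lower (24.2% and 23.7% of all genes), 5 were higher and 7 lower at 4 h (15.4% and 18.1%), and 27 were late starts to higher (8.47%). In the late minus early response 37 were higher (19.1%) and 0 lower, with a median of 0.91. Without the ATM knock-out line in the mean 2 were higher at 4 h and 31 were late starts. The same list was higher at 24 h than at 4 h in DMSO by a median of 0.83. Cxcl10, a chemokine of the interferon response, had 6.71, 78.1 and 131 CPM with APH and 1.1, 12.3 and 24.9 CPM with DMSO at 24 h, and 0.766, 6.31 and 12.6 CPM with APH and 0.481, 4.17 and 12.5 CPM with DMSO at 4 h. It was above DMSO in every line at 24 h, and above in 1 and below in 2 lines at 4 h. Its late minus early values were 0.58, 2.56, 5.84 and 1.76 in the lines, with the ATM knock-out highest, and the mean was 2.68 ± 0.17. Isg15, a ubiquitin-like protein, changed by 1.5 ± 0.07 at 24 h and 0.12 ± 0.11 at 4 h. In the mean Ifi27 switched, with late minus early values of 1.18, 1.23, 1.03 and 1.27 in the lines. Stat2, a subunit of the interferon transcription factor ISGF3, also switched in the mean (0.56 ± 0.04 and −0.38 ± 0.05). In wtATM taken alone 0 members of the list switched. Promoters of Cxcl10 and Isg15 are shown because they hold the core of the interferon-stimulated response element (ISRE; GAAA, then any 2 bases, then GAAA; searched on both strands; capitals, overlapping cores run together), in RefSeq GRCm38.p6 at chr5:92348840-92349139 and chr4:156200769-156201068 (minus strand).
Cxcl10: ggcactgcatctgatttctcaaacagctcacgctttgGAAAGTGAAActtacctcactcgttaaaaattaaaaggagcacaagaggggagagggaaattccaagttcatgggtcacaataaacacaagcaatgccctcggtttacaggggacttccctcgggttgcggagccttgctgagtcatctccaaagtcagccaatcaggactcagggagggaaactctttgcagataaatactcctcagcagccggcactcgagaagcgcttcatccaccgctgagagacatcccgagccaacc
Isg15: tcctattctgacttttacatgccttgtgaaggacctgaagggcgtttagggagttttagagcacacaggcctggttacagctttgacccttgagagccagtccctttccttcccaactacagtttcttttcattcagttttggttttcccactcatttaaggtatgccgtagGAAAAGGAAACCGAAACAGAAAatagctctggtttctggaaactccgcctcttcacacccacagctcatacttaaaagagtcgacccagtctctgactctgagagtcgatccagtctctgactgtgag
The core was found in 20 of 43 promoters of the list (46.5%), against 3.05% of all promoters.

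The largest late starts outside the lists were Gna15, a G protein subunit with some libraries without a read (at most 20.6 CPM), and Atg9b, an autophagy gene. Atg9b had 4.59, 16.5 and 127 CPM with APH and 1.13, 2.0 and 31.9 CPM with DMSO at 24 h, and 1.06, 2.55 and 34.6 CPM with APH and 1.14, 3.11 and 42.2 CPM with DMSO at 4 h. It was above DMSO in every line at 24 h and below it in 2 lines at 4 h, a difference of 2.79 ± 0.18 (edgeR adjusted p = 1.35e-14).

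The late starts to lower expression taken by the naming rule were Ung, Hnrnpd, Pard3 and Rnf39. Ung, uracil-DNA glycosylase, which removes uracil from DNA (ENSMUSG00000029591; mm10 chromosome 5, 114130386 to 114139323), had 7.86, 9.26 and 11.4 CPM with APH and 23.3, 28.2 and 33.7 CPM with DMSO at 24 h, and 20.4, 25.3 and 46.4 CPM with APH and 22.6, 26.2 and 32 CPM with DMSO at 4 h. Every APH library was below every DMSO library at 24 h, across lines as well as within them; APH lay below DMSO within each line at 24 h for 9.78% of genes. The late minus early response was −1.59 ± 0.08 (edgeR adjusted p = 2.42e-18), with −2.05, −1.7, −1.28 and −1.33 in the lines. Hnrnpd, the AU-rich element binding protein AUF1, had 99.5, 137 and 181 CPM with APH and 195, 269 and 294 CPM with DMSO at 24 h, and 237, 321 and 399 CPM with APH and 269.8, 334 and 416 CPM with DMSO at 4 h. The 24 h groups did not overlap even across lines (−0.95 ± 0.04 and −0.09 ± 0.04). Pard3, a polarity protein, changed by −0.91 ± 0.05 and 0.08 ± 0.05, and Rnf39 had libraries without a read. Among 14 hnRNP genes, a list drawn up after the values were seen, 10 started late to lower (8.4% of all genes), 3 were lower at both times and Hnrnph1 started late to higher (0.15 at 24 h). All 8 subunits of the chaperonin TRiC, a list also drawn up after the values were seen, started late to lower, with 24 h values from −0.35 (Cct5) to −0.16 (Cct4).

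Few genes met the same class in each of the 4 lines taken alone; the class in single lines can differ from that of the mean, as for Cdca3, which faded in each line and switched in the mean. There were 11 such switches to higher, among them the mitotic genes Arhgap11a, Ckap2l, Dlgap5 and Kifc1 and the nuclear envelope gene Sun2 (0.39 ± 0.03 at 24 h and −0.43 ± 0.03 at 4 h). Kifc1 and Kifc5b, near-identical kinesin copies that share reads, count there as 2 genes. Only Ext1, a heparan sulfate polymerase, switched to lower in each line (−0.43 ± 0.03 and 0.49 ± 0.03). The 6 genes higher at both times were Dck, Dusp6, Ero1lb, Ier3, Lif and Plekhh1, where Dck salvages deoxynucleosides (0.56 ± 0.04 and 0.59 ± 0.04). The 15 lower at both times included H1f0, the sterol genes Sqle, Lss and Fdps, the fatty acid genes Elovl6 and Scd2, and Lmnb1, lamin B1 (−0.47 ± 0.03 and −0.40 ± 0.03). Fading genes in every line were Rfc3 and Ttc39b from higher and Acat2, Cdca3, Cdca8, Cks2 and Kif22 from lower. Late starts were the most shared, with 42 to higher and 39 to lower. The higher ones included the lysosomal genes Man2b1, Manba and Fuca2, the antigen transporter gene Tap1 (1.24 ± 0.07 and 0.02 ± 0.10), and Pml, of nuclear bodies. The lower ones included the chaperone Hspa8, the nucleolar genes Ncl and Npm1 (−0.60 ± 0.05 and 0.10 ± 0.05), and Cct5, Cct6a and Cct8, along with several predicted genes that can share reads with expressed copies.

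The 4 lines were not alike in the time course. The F-test called 2381 genes (12.9%). The ATMIN pair minus the ATM pair was called for 1480 genes (8.01%), 594 higher (3.21%) and 886 lower (4.79%). The ATM knock-out minus wtATM was called for 684 (3.7%), 2.54% of genes being higher and 1.16% lower, and the ATMIN knock-out minus wtATMIN for 258 (1.4%), 0.487% higher and 0.909% lower. Without ATM knock-out APH 4 h replicate 1 the F-test called 4919, and the pair comparison 1048 higher and 1683 lower; without the ATM knock-out line the F-test called 885, and the pair comparison 270 and 316. The pair comparison had 390 genes higher without wtATMIN DMSO 24 h replicate 1. Genes lower in the ATM knock-out numbered 1828, and 1126, 1112, 1042 and 1088 without its replicate 2 of APH 24 h, APH 4 h, DMSO 24 h and DMSO 4 h. Krt16, a keratin taken by the naming rule for its pair difference, had 5.26 and 5.74 CPM with APH at 24 h in the ATM knock-out and no read in its DMSO libraries at 24 h. In wtATM it had 11.3 and 11.5 CPM with APH and 16.9 and 17.8 CPM with DMSO at 24 h, so the direction there was the opposite. Krt14 reached 227 CPM in a library, and epithelial markers summed to 0.655 to 169.9 CPM with APH and 0.187 to 241.5 CPM with DMSO at 24 h; their part in the Krt16 value was not tested. Ces2g, a carboxylesterase, had 1.92 and 2.89 CPM with APH and 0.835 and 0.669 CPM with DMSO at 24 h in wtATMIN, where an APH 4 h library had no read. Thbd, thrombomodulin, also had libraries without a read. Genes with 1 sign of the late minus early response in all 4 lines were 34.8% of those tested. Within classes the share with the called signs in all lines used only the times at which the class is called. For classes called at 1 time it was 78.9% and 81.9% (late starts to higher and lower) and 70.4% and 69.9% (fading from higher and lower). Classes called at both times need the signs at both. There it was 45.9% and 56.6% (persisting higher and lower) and 41.5% and 27.2% (switches to higher and lower).

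Gene length went with the time course. Genes that switched to higher had a median length of 17.9 kb and those that switched to lower 44.4 kb, against 23.4 kb for all tested protein-coding genes. Late starts to higher and lower had medians of 20.5 and 30.4 kb. Of 709 protein-coding genes longer than 200 kb, 62 were higher and 265 lower at 24 h (24.2% and 23.7% of all genes). At 4 h 105 were higher and 125 lower, near the shares of all genes (15.4% and 18.1%). In the late minus early response 58 were higher and 220 lower (19.1% and 18% of all genes). The median response of the genes longer than 200 kb was −0.17 at 24 h and −0.01 at 4 h, against 0.10 and 0.00 for genes of 10 to 25 kb. The 24 h median of the longest genes was −0.17, −0.39, 0.00 and −0.10 in the 4 lines. At 4 h it was 0.09 in the ATM knock-out and between −0.10 and 0.00 in the others, and the ATM knock-out had −0.18 for genes under 5 kb. On the log2(CPM + 0.5) scale these ATM knock-out medians were 0.08 and −0.16 with both of its APH 4 h libraries. They were 0.06 and −0.24 without replicate 1, and 0.07 and −0.09 without replicate 2.

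**Figure D5:**
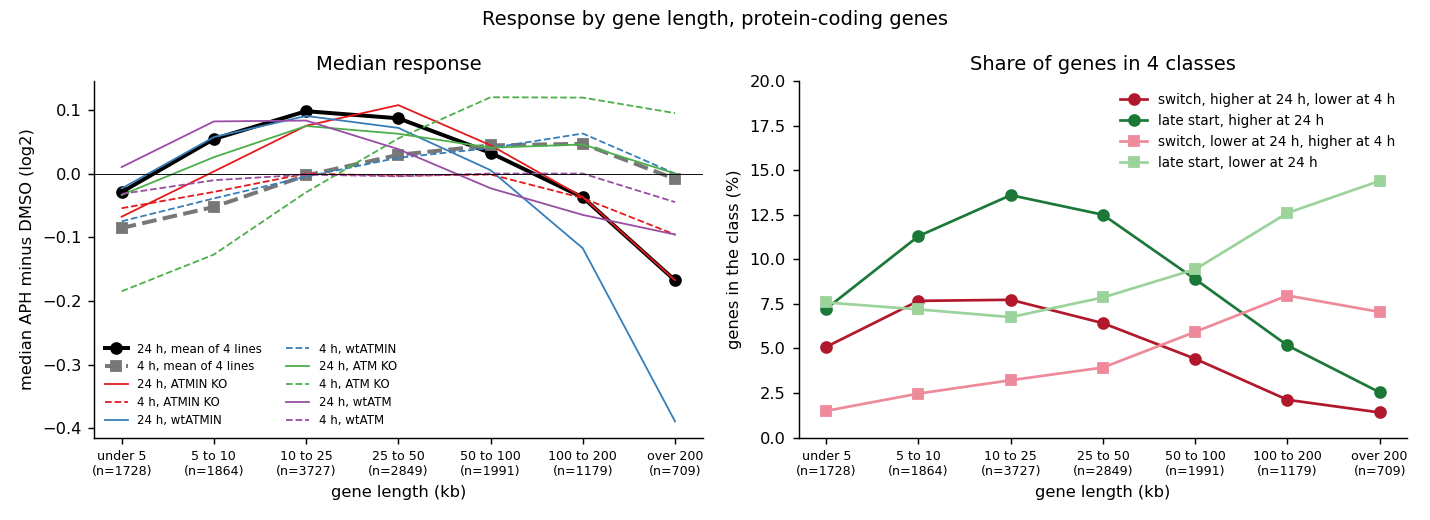
Left, median APH minus DMSO response (y axis, log2) of protein-coding genes by gene length (x axis, kb; n genes below each bin), for the mean of 4 lines and each line at 24 h (solid) and 4 h (dashed). Right, percent of genes in 4 classes by the same bins: late start to lower runs from 7.58% of genes under 5 kb to 14.4% of those over 200 kb, and late start to higher is 13.6% at 10 to 25 kb and 2.54% over 200 kb.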

How the data were processed

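RNA of 32 samples of 4 MEF lines was taken up in TRIzol and made into libraries with the TruSeq RNA kit v2 from 1 µg of RNA, per the labels' protocols. The authors deposited raw read counts per Ensembl gene. The submitters' processing notes name TopHat2 2.0.13, Bowtie2 2.4.0, DESeq2 1.6.3 and the mm10 build. The counting tool, strand setting and annotation release are not given in the sources used here, so reads of a gene and of one that overlaps it may be mixed. The column names AT and UT were read as APH and DMSO and pos and neg as wild type and knock-out, because only these treatments and genotypes appear in the labels. The authors' tables of comparisons between groups were not used.

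Counts were fitted with edgeR 4.0.16 in R 4.3.3: filterByExpr by group, TMM, a robust quasi-likelihood model over 16 groups of 2, Benjamini-Hochberg over 18484 genes, calls at 0.05. The common biological coefficient of variation was 0.0643. CPM are counts over TMM-scaled library sizes. Tables and figures were made with Python 3.11.15 and matplotlib 3.10.9. Symbols matched for 37607 of 39017 genes, positions are from GENCODE M21 (GRCm38). The fit and the class rules were tested on simulated data. Alternatives were RLE, library size only, no filter, DESeq2 1.42.0, a replicate block, each line left out, each library left out, and size limits on the classes.

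Named genes are Cdkn1a, Mdm2, Ccnb1, Plk1, Ccne1, H1f0, H2afx and Trp53, the 4 largest of each class and direction with a mean log2 CPM of at least 1, no clone name and 1 sign in all lines, up to 3 members of each list by smallest p, and the 3 largest and smallest pair differences; other members, and the genes shared by 4 lines, were chosen after their values were seen. The classes, members and lists were chosen with earlier results of these data known. Classes and lists were not tested as sets. Some genes taken by these rules are not reported here.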

Additional observations from a re-analysis of the deposited data

Results flagged for a closer look

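The late minus early response of 55 named genes differed between the 4 lines by the F-test with 3 degrees of freedom in edgeR, at an adjusted p under 0.05. Over all tested genes 12.9% did, but most named genes were picked for large values or a small p in these data. Those named for a pair difference were picked by a contrast that the F-test contains, so the count cannot be set against that share. Among cell cycle, histone and p53 genes, the adjusted p was 2.37e-06 for Ccnb1, 9.18e-05 for Plk1, 0.000461 for Kif20a, 4.46e-05 for Kif2c, 0.00369 for Ccne1, 0.00685 for Mcm6, 0.0257 for Ung, 1.2e-08 for H1f0, 0.000312 for H2afx, 0.00732 for Hist3h2a, 4.11e-09 for Hist1h1c, 0.000657 for Mdm2, 2.56e-05 for Trp53inp1, 0.0337 for Ccng1, 0.0179 for Trp53 and 0.00135 for Fancd2. Among inflammatory, interferon and growth factor response genes, the adjusted p was 4.81e-08 for Lif, 1.89e-09 for Ccl2, 8.72e-08 for Il1rl1, 0.0449 for Ptgs2, 0.0118 for Tnip1, 5.88e-11 for Cxcl10, 0.00121 for Stat2, 0.0125 for Atf3, 0.000203 for Fosl1, 0.00238 for Dusp1, 0.000382 for Dusp5, 2.56e-05 for Phlda1, 0.00116 for Ccn2, 0.00486 for Ccn1 and 0.00226 for F3. Among stress, metabolic, matrix and clock genes, the adjusted p was 0.00127 for Ppp1r15a, 0.00259 for Tpp1, 0.00798 for Atg9b, 5.43e-06 for Ephx1, 0.0348 for Srxn1, 0.00164 for Hmox1, 0.00114 for Mvd, 2.2e-05 for Insig1, 4.44e-08 for Timp1, 0.000898 for Timp3 and 0.00843 for Nr1d1. Among the largest class members and pair differences, the adjusted p was 0.0288 for Apol9a, 0.000134 for Gjb2, 0.0139 for Pmepa1, 0.0414 for Htr2a, 3.07e-09 for Sema7a, 0.000249 for Rgs16, 0.00107 for Pard3, 0.0154 for Hist1h2bk, 0.036 for mt-Tr, 0.0457 for Ces2g, 0.000149 for Krt16, 0.0139 for Thbd and 0.00465 for Msl3l2. The lines moved in opposite directions for some of these: the late minus early values were −1.64, −0.41, 0.64 and 0.55 for Lif and −1.7, 1.47, 0.80 and −0.14 for Ccl2. For the mitotic genes they had 1 sign and differed in size, as for Ccnb1 (1.53, 1.48, 0.69 and 0.81).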

How the results depend on the processing

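Counts of called genes and class sizes stayed within 1.5 times under RLE, no filter, DESeq2 and the replicate block. Deviations of same-numbered APH and DMSO samples correlated between −0.0862 and 0.0696, so the replicate numbers did not pair samples; with the replicate as a block the fit called 3369 genes higher and 3147 lower in the late minus early response. With library size only, the late minus early response was lower for 2202 genes (1080 in wtATMIN, 992 in the ATM knock-out), 366 switched to lower and 1002 started late to lower; the median of all genes moved by 0.07. Without the ATM knock-out line, the pair comparison called 270 higher and 316 lower and the F-test 885. Without the ATMIN knock-out line these were 224, 410 and 1491, and 397 genes switched to lower. With size limits the classes held 62 and 4 (switch to higher and lower), 109 and 57 (persist), 121 and 91 (fade), and 392 and 200 (late start). The F-test was not run with DESeq2, and a line's own result has no value where it is left out. Leaving out 1 library moved 4 counts: the pair comparison to between 390 and 1048 higher (390 without wtATMIN DMSO 24 h replicate 1, 1048 without ATM knock-out APH 4 h replicate 1) and 684 to 1683 lower, the F-test to 1718 to 4919, and genes lower in the ATM knock-out to 1042 to 2334. Named genes reversed 9 times, each on leaving a line out. Without the ATM knock-out line, Trp53inp1 and Ccng1 were at −0.28 and −0.034 at 4 h, and Krt16 at −0.031 at 24 h and −1.81 in the late minus early response. Without the ATMIN knock-out line the late minus early value of Lif was 0.26. Without wtATM, Sema7a and Il1rl1 were at 0.31 and 0.077 at 24 h, and without wtATMIN the late minus early values of H2afx and Hist1h1c were −0.010 and −0.19. The causes were not tested. Beside Tcn2, Phlda1, Ccn2 and Lef1, calls that decide a class changed in 6 to 9 of 41 settings for Acat2 and Hist1h2ao at 24 h and for Fancd2, Cdkn1a, Dusp1, Hnrnpd and Atg9b at 4 h. The other values of named genes were 10424 that kept their side of the threshold, 282 that lost it and 105 that gained it. Groups of 2 libraries and a shallowest library of 9321329 reads limit single-line calls.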
